A study of Mus musculus with 2 samples.

Results

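The 7 genes described here are Hras, Nras, Braf, Araf, Map2k1, Map2k2 and Mapk3, which encode proteins of the RAS, RAF, MEK and ERK steps of the MAP kinase cascade. They were chosen by gene symbol from a deposited table of 55640 records, of which 55487 carried a symbol, and each symbol matched 1 record. Other RAS, RAF and ERK genes of these steps are not analysed here. Relatives such as the R-RAS subfamily and Mapk7 appear below, in lists of pathway genes around the members. RNA was sequenced from LPC-HRas cells, a mouse liver tumour line, infected with lentivirus. The control group, shRFP, received a hairpin against RFP and the knockdown group, shETV4, a hairpin against Etv4, which encodes a PEA3-group member of the ETS transcription factors. Both groups share the LPC-HRas background and a lentiviral hairpin, and the comparison asks how expression in these cells differs with and without the Etv4 hairpin. The labels do not say whether the cells are 1 clone, how many hairpins were used, or whether the HRas of the line's name was introduced and from which species. The sources used here do not give how reads from an introduced HRas would have been assigned to the mouse Hras record.

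Each group had 1 library. The differences below therefore have no replicate check, p-value or error. Values are TPM, abundances scaled to transcript length and to a fixed library total; sequencing depth and counting error are unknown, since TPM does not keep them. A difference is log2(TPM + 1) with shETV4 minus log2(TPM + 1) with shRFP, a scale that understates the change of low genes. Genes with 1 TPM or more in either library were evaluated, and those that differed by 2-fold or more on the log2(TPM + 1) scale were called. Etv4 itself had 73.2 TPM in the control library and 16.2 TPM in the knockdown library, 4.52-fold lower. The hepatocyte marker genes Alb, Fgb and Cyp3a11 were listed at 0 in both libraries and 1 of 10 such markers was evaluated, Apoa2 at 2.61 and 2.93 TPM, although the labels name the cells hepatocellular carcinoma cells. Of 7 biliary and progenitor markers 4 were evaluated: Sox9, Spp1, Krt19 and Cd24a, the last called lower at 132 and 55.5 TPM, while Epcam, Krt7 and Prom1 were at 0.23 TPM or less. Of 7 mesenchymal markers 6 were evaluated, with Vim at 4324 and 4104 TPM, while 1 of 5 endothelial markers (Egfl7, at 13.5 and 18.8 TPM) and 1 of 6 leukocyte markers (Cd68, at 1.01 and 1.98 TPM) was evaluated.

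In this cascade, growth factor receptors bring exchange factors to RAS, a small GTPase that is active while it holds GTP. Active RAS recruits RAF kinases to the membrane, RAF phosphorylates the dual-specificity kinases MEK1 and MEK2, and these phosphorylate ERK1 and ERK2, which enter the nucleus and act on ETS-family and other transcription factors. PEA3-group factors such as Etv4 are known as transcriptional outputs of the cascade, and activation of RAS signalling is a known driver of liver tumours in mice. Activity in the cascade is set mainly by GTP loading and phosphorylation of the proteins, which RNA levels do not measure.

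Since the knocked-down factor binds ETS sites, the promoters of the 7 genes were searched, on both strands, for the letters CCGGAA, a core of ETS sites, and AGGAAG, the PEA3 site. The windows were those of RefSeq on GRCm38.p6, from 250 bases before to 50 bases after a gene's start, and 6 of the 7 genes matched by symbol; Mapk3 had no entry. CCGGAA lay in the windows of 3 of these 6 genes and in 14.9% of all 32851 windows, AGGAAG in 2 of 6 and in 35.4%. Hras held both, as did 5.05% of all windows. These shares cover all windows and were not matched for expression or GC content, so they are no like background for the members. The stretches around the matches are shown 5′ to 3′ on the gene's strand, with the motif, or its reverse complement TTCCGG in Hras, in capitals.
Hras, chr7:141194098-141194202, minus strand: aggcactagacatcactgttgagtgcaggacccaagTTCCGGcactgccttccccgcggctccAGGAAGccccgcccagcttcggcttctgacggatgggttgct
Braf, chr6:39725630-39725707, minus strand: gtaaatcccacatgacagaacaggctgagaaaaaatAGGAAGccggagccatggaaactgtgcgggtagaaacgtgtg
Araf, chrX:20848402-20848479, plus strand: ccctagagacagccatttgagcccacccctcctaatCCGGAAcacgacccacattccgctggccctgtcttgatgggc
Map2k1, chr9:64253764-64253841, minus strand: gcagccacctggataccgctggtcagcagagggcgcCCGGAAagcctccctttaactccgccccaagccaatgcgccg
The matches began 162 (TTCCGG) and 135 (AGGAAG) bases before the RefSeq start in Hras, 208 in Braf, 105 in Araf and 200 in Map2k1. For Araf that start is not the first base of the gene as annotated below (20797814 to 20860519, plus strand). The Araf stretch lies inside that span, so it is a promoter only for the start that RefSeq gives. The windows of Nras and Map2k2 held neither set of letters. A match is a description of the letters and does not show binding, and no binding data are part of the series.

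All 7 genes were expressed in both libraries, and none was called in either direction. Of the 12968 evaluated genes, 3.39% were called higher and 7.06% lower with shETV4. The differences of the 7 genes had a median of 0.08 and ran from -0.90 for Braf to 0.52 for Mapk3, with 5 genes above 0 and 2 below; the median of all evaluated genes was -0.10. Hras, Nras, Araf, Map2k1 and Map2k2 differed by less than 0.1 in size, as did 17.0% of all evaluated genes. In the level range of these 5 genes, within 2-fold of each gene's summed TPM, that share ran from 22.1% to 24.6%. Braf and Mapk3 were therefore the members that stood away from 0, one downward and the other upward.

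**Figure D1:**
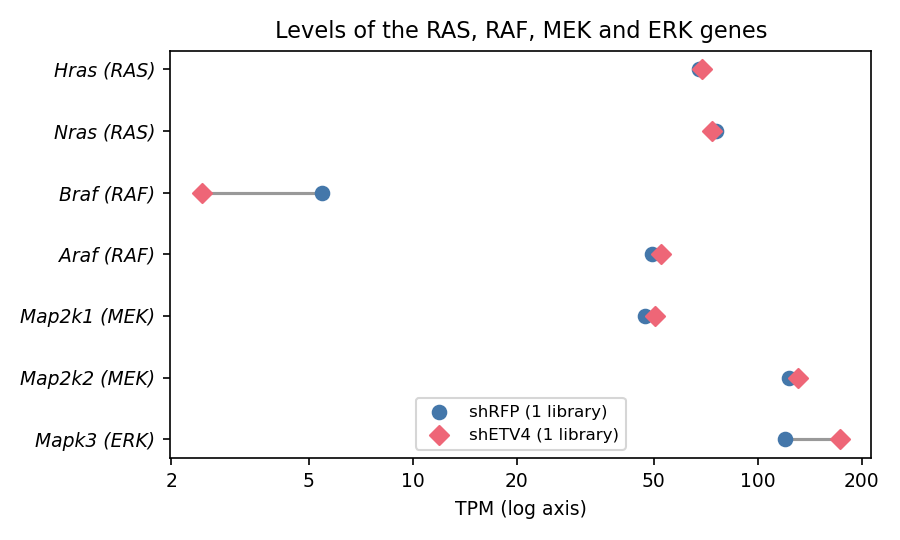
TPM of the 7 genes on a log axis, with 1 point for the shRFP library (circle) and 1 for the shETV4 library (diamond), and a line joining both. The points of 5 genes nearly coincide, Braf lies to the left with shETV4 (5.45 and 2.45 TPM) and Mapk3 to the right (120 and 173 TPM).

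The RAS genes were nearly the same in both libraries. Hras (ENSMUSG00000025499, GRCm38 chromosome 7, 141189105 to 141194005, minus strand) encodes the RAS protein for which the line is named. Its level in the shRFP library was 67.7 TPM and in the shETV4 library 68.8 TPM, a difference of 0.02. Nras (ENSMUSG00000027852, chromosome 3, 103058285 to 103067914, plus strand), which encodes a close paralog that differs mostly in its C-terminal membrane-targeting region, was at 75.5 and 73.6 TPM, a difference of -0.04. The Nras value was above the Hras value in each library, an order that 1 library per group cannot establish, and Hras made up 47.3% of their summed TPM with shRFP and 48.3% with shETV4. The summed TPM of the pair was 143 and 142. The log2 ratio of Hras to Nras differed by 0.06 between libraries, and by -0.47 after the GC adjustment described below. The nearest protein-coding genes to Hras by level over the 2 libraries, of 11556 searched, were 1110065P20Rik at 67.95 and 69.42 TPM (a distance of 0.01 on the log2 scale) and Pold1 at 66.5 and 68.8 TPM (0.03); with 2 libraries such likeness describes these levels and no more.

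The RAF genes differed from each other in level and in direction. Araf (ENSMUSG00000001127, chromosome X, 20797814 to 20860519, plus strand) encodes the RAF kinase with the weakest known basal activity toward MEK. It reached 49.5 TPM in the shRFP library and 52.4 TPM in the shETV4 library, a difference of 0.08. Braf (ENSMUSG00000002413, chromosome 6, 39603237 to 39725463, minus strand), which encodes the RAF kinase with the strongest known activity toward MEK, was the lowest of the 7 genes in both libraries. Its values were 5.45 TPM in the shRFP library and 2.45 TPM in the shETV4 library, a plain ratio of 2.22-fold lower, yet its difference of -0.90 on the log2(TPM + 1) scale was inside 2-fold. With a pseudocount of 0.1 in place of 1 the difference was -1.12, past 2-fold, a threshold that 11.3% of evaluated genes then passed downward. Braf lay at percentile 26.0 of evaluated genes by level with shRFP and 16.8 with shETV4, while the other 6 genes lay at percentile 75.7 or above in each library. The nearest protein-coding genes to Braf by level were Csgalnact2 at 5.37 and 2.38 TPM (distance 0.03) and Smim13 at 5.36 and 2.52 TPM (0.04).

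The summed TPM of the pair was 55.0 with shRFP and 54.8 with shETV4, the Braf value being 3 TPM lower and the Araf value 2.86 TPM higher with shETV4. Braf made up 9.91% of that sum with shRFP and 4.47% with shETV4. The ratio of Araf to Braf, which does not depend on how a library is scaled, was 9.09 with shRFP and 21.4 with shETV4, a difference of 1.23 on the log2 scale of plain TPM. That difference was 0.56 with a pseudocount of 5, inside 2-fold. After the GC adjustment described below it was 0.38, taken from adjusted differences on the log2(TPM + 1) scale. The step from 1.23 to 0.38 thus holds a change of pseudocount as well as the adjustment. On the log2(TPM + 1) scale before adjustment, the differences of Araf (0.08) and Braf (-0.90) already lay less than 2-fold apart.

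The MEK genes had nearly the same ratio in both libraries on the deposited scale. Map2k1 (ENSMUSG00000004936, chromosome 9, 64185770 to 64253631, minus strand) encodes MEK1 and was at 47.2 and 50.2 TPM, a difference of 0.09. Map2k2 (ENSMUSG00000035027, chromosome 10, 81105915 to 81133975, plus strand) encodes MEK2 and was at 123 and 131 TPM, a difference of 0.09. Map2k2 was 2.60-fold above Map2k1 with shRFP and 2.61-fold above it with shETV4. The MEK2 gene thus held 72.3% of the summed TPM of the pair in both libraries, and that sum was 170 and 181 TPM. After GC adjustment the log2 ratio of Map2k2 to Map2k1 differed by -0.21 between libraries.

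Mapk3 (ENSMUSG00000063065, chromosome 7, 126759601 to 126765819, plus strand) encodes ERK1, the kinase at the end of the cascade. The shRFP library had 120 TPM of it and the shETV4 library 173 TPM, 1.44-fold higher, a difference of 0.52 that 89.9% of evaluated genes lay below. Relative to Map2k2, which encodes one of the kinases that phosphorylate it, the Mapk3 level was 0.976-fold with shRFP and 1.32-fold with shETV4. Map2k2 and Mapk3 accordingly exchanged the first and second place in the order of levels. The rest of the order was the same in both libraries, with Nras, Hras, Araf, Map2k1 and Braf following. With no replicates, which neighbours in that order differ beyond the spread between samples is unknown; neighbours as close as Mapk3 and Map2k2 with shRFP, Araf and Map2k1, and Hras and Nras cannot be ordered from these values.

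**Figure D2:**
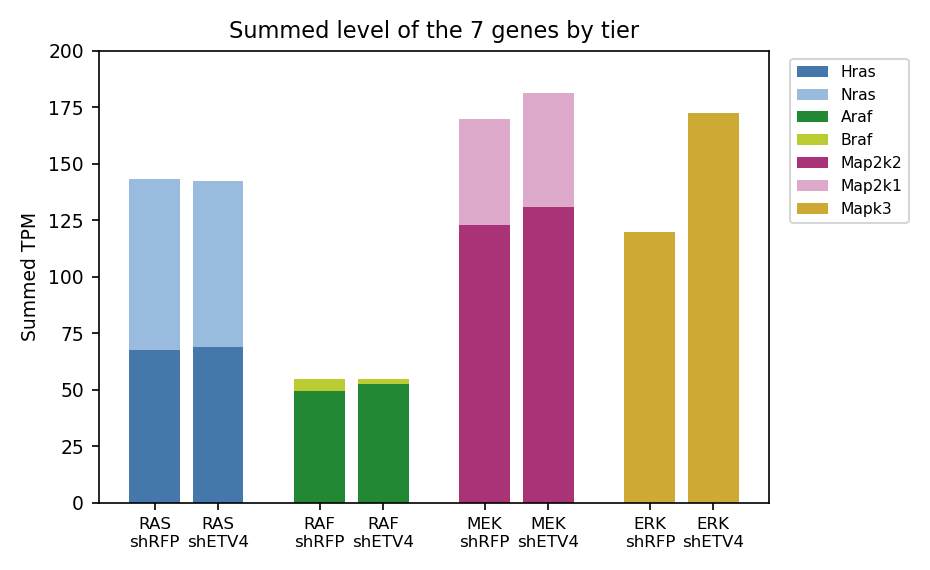
Summed TPM of the genes described at each step of the cascade, 1 bar per library, with segments for each gene and the axis starting at 0. The RAS and RAF bars are nearly level between libraries (143 and 142 TPM, 55.0 and 54.8 TPM), the MEK bars are 170 and 181 TPM, and the ERK bar, which is Mapk3 alone, is 120 and 173 TPM.

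Little of the annotated sequence of these genes is shared with other annotated genes. The share of reads so affected was not measured, and an introduced HRas was not part of the comparison. No exonic base of Hras, Nras, Map2k1, Map2k2 or Mapk3 lies in an exon of another gene, and 0.138% of those of Araf and 1.05% of those of Braf do. Of the distinct 50-base stretches of each gene's annotated transcripts, 0% (Hras) to 1.13% (Araf) occur in transcripts of another gene on either strand. Map2k1 and Map2k2 share 7 such stretches with each other, 0.207% and 0.122% of their own, and those of Braf are shared with Ndufb2. The shared stretches of Nras (0.733%) and Araf (1.13%) occur in transcripts of many other genes. The pseudogene record Nras-ps2 was listed at 0 in both libraries.

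Base composition moved with the differences in this pair of libraries. The GC content of a gene here is the median over its annotated transcripts, and over 12947 evaluated genes with a value the rank correlation of the difference with it was 0.52, a description across genes of the same 2 libraries. The median difference was -0.81 in the bin of genes poorest in GC and 0.20 in the richest, of 50 bins. Among the 7 genes, Braf had the lowest GC content at 44.3%, then Nras at 45.9%, Map2k1 at 50.3%, Araf at 53.4%, Mapk3 at 56.4%, Map2k2 at 57.3% and Hras at 57.6%. The part of base composition in the members' differences was not tested.

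Set beside genes of like GC content, the members took another order. The 258 other genes in the GC bin of Braf had a median difference of -0.53 and quartiles of -0.78 and -0.19, and 16.3% of them lay below Braf. In the bin of Nras the median was -0.38, with quartiles of -0.66 and -0.06, so that Nras, which hardly differed between libraries, stood above 76.4% of the 258 genes of its bin. In the bin of Mapk3 the median was 0.17, the upper quartile was 0.40 and 82.9% lay below Mapk3. After the median of the difference at each GC content was subtracted, the differences ran from -0.37 for Braf to 0.37 for Mapk3, with Nras at 0.35, Map2k1 at 0.16, Araf at 0.01, Map2k2 at -0.05 and Hras at -0.12. None of the 7 was called on that scale, on which 6.32% of genes were called in either direction and 2.32% lower. The sign of Nras, Hras and Map2k2 thus changed with the adjustment, while that of Braf, Araf, Map2k1 and Mapk3 did not.

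**Figure D3:**
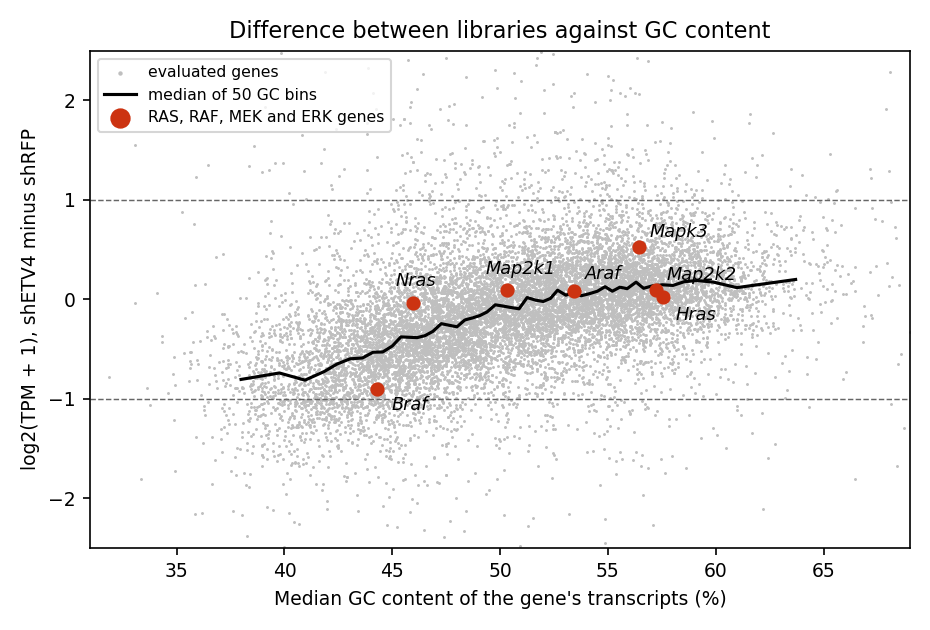
Difference between libraries (log2(TPM + 1), shETV4 minus shRFP) against the median GC content of each gene's transcripts in percent, for evaluated genes (grey), the median of 50 GC bins (line) and the 7 genes (red), with dashed lines at 2-fold. Braf (-0.90) and Nras (-0.04) have similar GC content but lie below and above the line, and Mapk3 (0.52) lies above it; 106 of 12947 genes lie outside the axes.

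Matching on level as well gave a similar picture. Among 594 genes within 2-fold of the summed TPM of Braf and within 2 percentage points of its GC content, the median difference was -0.55, 16.8% were called lower and 22.1% lay below Braf. Among the 414 genes so matched to Mapk3, the median was 0.11, the quartiles were -0.05 and 0.31, and 90.1% lay below Mapk3. Of the 457 genes matched to Nras, whose median was -0.33, 76.8% lay below it.

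The deposited scale also sets where 0 lies. Setting the median TPM ratio to 1, over genes with at least 5 TPM in each library, shifts all log2 ratios up by 0.07, and setting a trimmed mean of log ratios to 0 shifts them up by 0.12. On the trimmed mean scale 533 evaluated genes were called higher and 666 lower, against 439 and 916 on the deposited scale. Nras, at -0.04 on the deposited scale, was at 0.03 and 0.09 on these scales, so its direction depends on the scaling. Hras went to 0.09 and 0.15, Mapk3 to 0.59 and 0.65, and Braf to -0.86 and -0.81. No member was called on either scale.

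**Figure D4:**
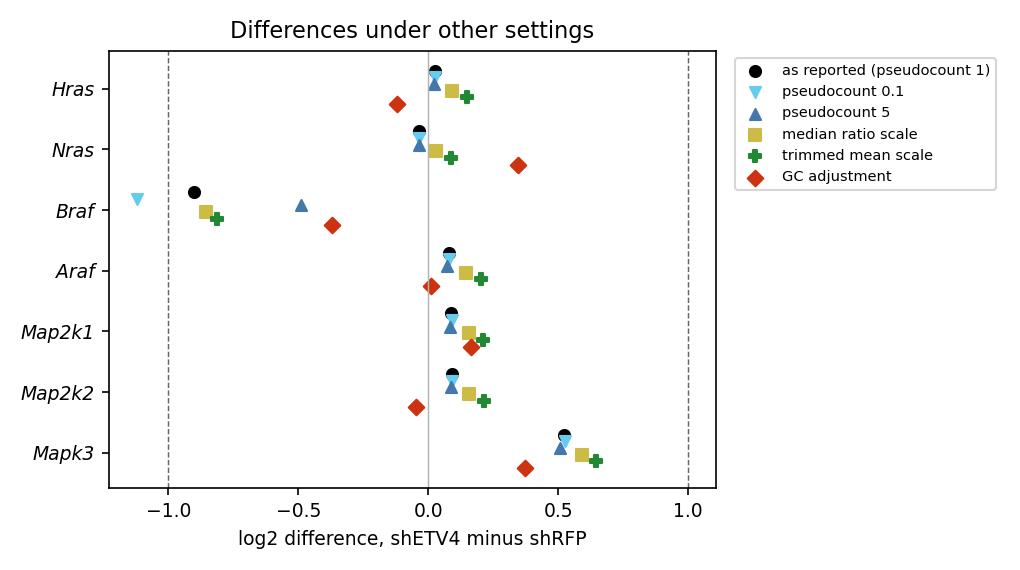
Log2 differences (shETV4 minus shRFP) of the 7 genes as reported, with other pseudocounts, on 2 other scales and after GC adjustment, with dashed lines at 2-fold. Braf spreads from -1.12 to -0.37 and stays below 0, and Mapk3 from 0.37 to 0.65 and stays above 0. Nras, Hras and Map2k2 fall on both sides of 0.

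Around the 7 genes, 8 lists held 90 other genes of the pathway, of which 80 were evaluated, and 7 were called lower and none higher. That is 8.75% called lower, against 7.06% of all evaluated genes, and the median difference was -0.12 against -0.10. After GC adjustment 2 of the 80 were called lower, Lypla1 and Rps6ka6, while 2.32% of all genes were. The adjusted median was -0.07, against -0.0004 for all genes. The calls lay in 4 of the lists.

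Upstream of RAS, 9 of 13 adaptor and exchange factor genes were evaluated, with a median of -0.43 (-0.04 after GC adjustment) and 1 called lower. That was Rasgrp3, an exchange factor gene at 1.40 and 0.14 TPM, whose difference of -1.07 rests on a level near the filter, and which was -0.57 after GC adjustment and -0.32 with a pseudocount of 5. Sos1 and Sos2 encode the exchange factors that receptors bring to RAS through the adaptor Grb2. Sos1 was at 9.78 and 5.05 TPM (-0.83; -0.24 after GC adjustment) and Sos2 at 6.12 and 5.97 TPM (-0.03; 0.50 after GC adjustment). Shc1, an adaptor gene, had the highest difference of the list at 77.5 and 119 TPM (0.61). Among GTPase-activating proteins, which switch RAS off, 9 of 10 were evaluated, none was called, and the median was -0.63, or 0.03 after GC adjustment. The lowest there was Rasa3 at 58.95 and 31.6 TPM (-0.88; -0.97 after GC adjustment) and the highest Rasa4 at 1.78 and 4.47 TPM (0.98; past 2-fold at 1.03 on the median ratio and 1.08 on the trimmed mean scale), while Nf1, which encodes neurofibromin, was at 17.7 and 10.9 TPM (-0.65; -0.17 after GC adjustment).

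RAS proteins are farnesylated, cleaved and methylated before they reach membranes, and H-RAS and N-RAS also carry palmitate. All 10 genes of these steps and of RAS turnover were evaluated, with a median of -0.08 (0.07 after GC adjustment). Lypla1, which encodes a thioesterase that removes palmitate, was the 1 gene called, at 32.0 and 9.84 TPM, 3.25-fold lower, with a difference of -1.61 and of -1.13 after GC adjustment. Its paralog Lypla2 went the other way, at 60.1 and 95.5 TPM, the highest difference of the list at 0.66. Fnta, the farnesyltransferase alpha subunit gene, was at 83.4 and 81.1 TPM. The 3 genes of the R-RAS subfamily, relatives of RAS, were not called: Rras was at 49.5 and 86.1 TPM (0.79), Mras at 21.2 and 23.1 TPM (0.12) and Rras2 at 22.2 and 11.97 TPM (-0.84).

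Scaffolds and modulators of the kinase cascade held most of the calls. Of 16 genes 14 were evaluated, 4 were called lower and none higher, with a median of -0.29 (-0.17 after GC adjustment). The called genes are 28.6% of those evaluated, against 7.06% of all evaluated genes. In the GC bin of Braf 11.2% of the other genes were called lower, but that bin is no matched background for this list. The listed genes spread over many GC bins, and a share matched to their GC content was not computed. Whether the list holds more calls than genes of like GC content was therefore not tested. Shoc2, the scaffold of a phosphatase that removes an inhibitory phosphate from RAF, was at 14.7 and 5.94 TPM, 2.48-fold lower (-1.18). Ppp1cb, the catalytic subunit gene of that phosphatase, was at 45.7 and 21.5 TPM, 2.12-fold lower (-1.05). Mras, its GTPase partner, is given above and did not pass 2-fold. Rap1a and Rap1b encode small GTPases able to bind RAF; Rap1a had 23.8 and 8.44 TPM (-1.39) and Rap1b 65.2 and 28.9 TPM (-1.15). These 4 genes had a GC content of 39.2% to 44.6% and stood between -0.66 and -0.34 after GC adjustment, none of them called; the part of base composition was not tested. With a pseudocount of 5, Shoc2 (-0.85) and Ppp1cb (-0.93) also came inside 2-fold, and Ppp1cb did so on both other scales (-0.99 and -0.93). The highest difference of the list was that of Pea15a, which encodes a protein that holds ERK in the cytoplasm, at 87.6 and 99.7 TPM (0.18). Pebp1, which encodes a RAF-binding inhibitor, was at 672 and 711 TPM.

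Downstream of ERK, all 11 genes of ERK-activated kinases and ternary complex factors were evaluated, with a median of -0.11 (-0.09 after GC adjustment). Rps6ka6, an RSK-family kinase gene, was called lower at 11.4 and 1.46 TPM, 7.80-fold, a difference of -2.33 and of -2.12 after GC adjustment. Its relative Rps6ka1 was at 24.5 and 26.6 TPM and Rps6ka2 at 29.2 and 31.8 TPM, and Mknk2, an ERK-activated kinase gene, had the highest difference at 48.3 and 69.1 TPM (0.51). Other RAS effector genes, 11 of 12 evaluated, had a median of 0.17 (0.24 after GC adjustment) and none called, from Rala at 22.8 and 13.2 TPM (-0.74) to Ralgds, an exchange factor gene for RAL, at 11.5 and 20.04 TPM (0.75). Genes of the parallel JNK, p38, ERK5 and atypical MAP kinase modules, 13 of 15 evaluated, had a median of -0.36 (-0.18 after GC adjustment) and none called, from Mapk8 at 24.1 and 13.2 TPM (-0.82) to Map2k3 at 111 and 150 TPM (0.42). After GC adjustment Mapk8 was at -0.10, and the lowest of these genes was Mapk7 at -0.62.

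All 10 genes of a MAPK output list, whose RNA is known to follow ERK activity, were evaluated. Of them 5 were above 0 and 5 below, with a median of 0.09 (0.17 after GC adjustment). The 2 called lower are 20% of the list, against 7.06% of all evaluated genes. Those were Etv4 and Epha4, an ephrin receptor gene at 4.44 and 1.07 TPM (-1.39, and -0.64 with a pseudocount of 5). Etv4 is the gene that the hairpin targets, so its place among the calls and below 0 was set by the design. The feedback phosphatase genes were inside 2-fold, Dusp4 at 149 and 205 TPM and Dusp6 at 68.2 and 92.8 TPM, and Spry4 had the highest difference at 6.05 and 10.6 TPM (0.71).

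**Figure D5:**
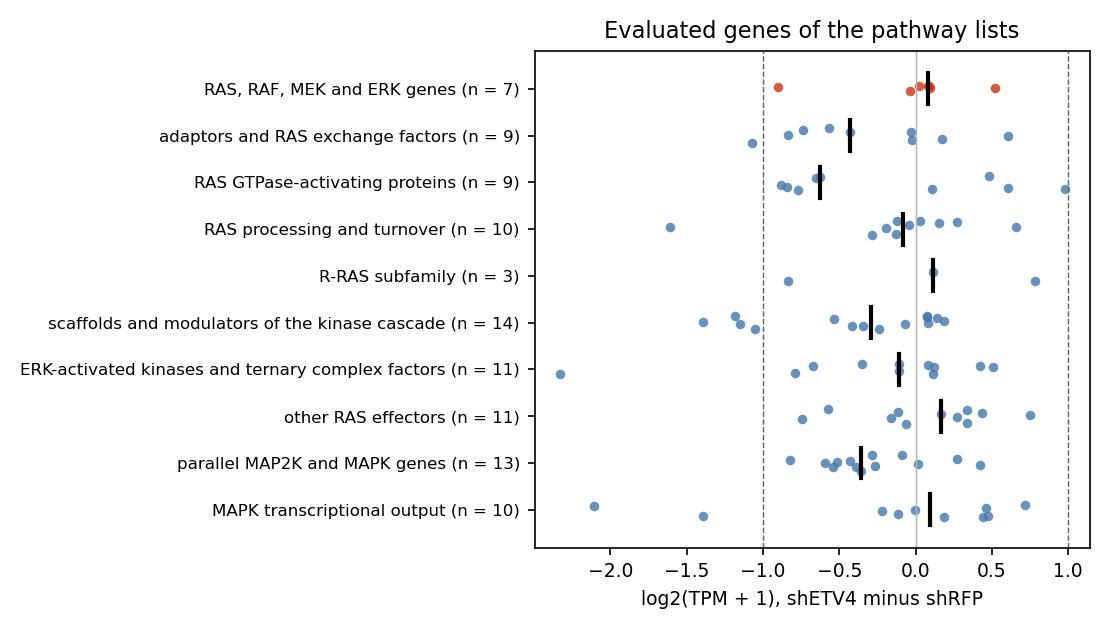
Differences (log2(TPM + 1), shETV4 minus shRFP) of the evaluated genes, 1 point per gene, in the 7 genes (red), 8 pathway lists and the MAPK output list (blue), with the median of each as a bar and dashed lines at 2-fold. No point lies beyond the line on the right, 4 of the scaffold genes lie beyond that on the left, and Rps6ka6 (-2.33) and Etv4 (-2.11) are the lowest.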

How the data were processed

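The authors deposited TPM, with 1 value for each gene in each library. The headers name no unit; it was read from the library totals of 999999.77 (shRFP) and 999870.3 (shETV4). Per the submitters' processing notes, HISAT2, RSEM and the build GRCm38.p4 were used; the sources used here do not give their roles and versions, the annotation, strand setting or filters. Since TPM has a fixed total, more of some RNAs means lower values for the rest, and depth cannot be recovered.

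Groups came from the treatment labels. The 153 records without a symbol (1.13% of TPM with shRFP, 2.67% with shETV4) were left out. GENCODE M21 on GRCm38 gave coordinates, GC content and exon overlap for 99.5% of named records, and all 142 listed genes were matched. The GC adjustment subtracted the median of the difference over 50 equal bins, interpolated. For the trimmed mean, 30% of genes by ratio and 5% by mean level were dropped from either end. The procedure was tested on simulated data with planted changes and a chosen spread. Such a test does not show how reliable the calls in these 2 libraries are. The members and lists were chosen with earlier results of these data known. Named are all members, Etv4, up to 4 called genes per direction and the extremes of each list, and the nearest genes of Hras and Braf; Sos1, Sos2, Nf1, Fnta, Mras, Pebp1, Rps6ka1, Rps6ka2, Mapk7, Dusp4 and Dusp6 were added after their values were seen. Alternatives changed the pseudocount, filter, scale, threshold, GC adjustment, record choice and gene set. Python 3.11.15, numpy 2.4.6, pandas 2.3.3 and matplotlib 3.10.9 were used.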

Additional observations from a re-analysis of the deposited data

How the results depend on the processing

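No paired analysis was possible because each group had 1 library, and no replicate could be left out. The members called numbered 0 in each direction under every alternative, except 1 lower (Braf) with a pseudocount of 0.1 and 1 lower at the 1.5-fold threshold. Of the 12968 evaluated genes, 1459 (11.3%) were called lower with that pseudocount and 2591 at 1.5-fold. Without a call, signs changed for Nras (0.030 on the median ratio scale, 0.087 on the trimmed mean scale, 0.35 with GC adjustment), Hras (-0.12 with GC adjustment) and Map2k2 (-0.048 with GC adjustment). The log2 ratio of Araf to Braf differed by 1.23 between libraries on plain TPM, by 0.56 with a pseudocount of 5 and by 0.38 with GC adjustment. That of Hras to Nras (0.06) went to -0.47 and that of Map2k2 to Map2k1 (0.0014) to -0.21 with GC adjustment. The GC-adjusted ratios were taken on log2(TPM + 1), so they differ from plain TPM in pseudocount too. Over the 80 evaluated genes of the 8 pathway lists, the count called higher was 0. It went to 1 with a pseudocount of 0.1, to 1 on the median ratio scale, to 1 on the trimmed mean scale and to 6 at 1.5-fold. The count called lower went from 7 to 4 with a pseudocount of 5, 20 at 1.5-fold, 2 at 3-fold and 2 with GC adjustment. Over all genes, 439 were called higher and 916 lower. On the median ratio scale 492 were called higher and 787 lower, and on the trimmed mean scale 533 and 666. The counts were 674 and 1459 with a pseudocount of 0.1, 167 and 267 with 5, and 1117 and 2591 at 1.5-fold. They were 162 in each direction at 3-fold. At 5 TPM or more 252 were called higher and 690 lower, and among protein-coding genes 250 and 737. These 2 settings evaluate fewer genes, so their counts are not on the same base as the others. With GC adjustment 518 were called higher and 300 lower. The cause of these changes was not tested. Depth is unknown, so the counting error behind the low values of Braf, Rasgrp3 and Epha4 cannot be given.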
